A study of Mus musculus with 6 samples.

Results

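Complement and coagulation factors are the 2 enzyme cascades of blood plasma whose proteins the liver makes, and 42 of their genes were followed here in mouse liver. The list was matched by symbol to the array's annotation, and each gene was read from 1 probe set, the one with the highest mean over all arrays. Of the 42 genes, 39 were measured (17 of 20 complement and 22 of 22 coagulation genes), out of 18194 genes on the array. C3, C4b and Cfd had no probe set naming a single gene in the annotation table, and their expression is not analysed here. C1s is listed there under its current symbol, C1s1.

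The study set 3 liver samples of NZO mice (New Zealand Obese, an inbred strain that becomes obese and diabetic on ordinary chow) against 3 liver samples of BKS mice (C57BL/KS, the control strain, whose titles add wt). All 6 samples came from males of 18 weeks on chow, killed with carbon dioxide, and no other treatment or engineered allele is given. NZO is a polygenic model, so the strains differ at many loci as well as in weight and blood glucose, and these cannot be told apart. Values are log2 expression per probe set, so a difference of 1 is a doubling. They carry no detection call, and strain differences are taken within a probe set. Levels of different probe sets are set together to choose a gene's probe set, to pick bright genes and to describe cell type markers. Whether the strains differ in sequence under the probes was not examined.

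Complement tags microbes and damaged cells. Antibody (through C1s), sugar-binding lectins (Mbl1 and Mbl2 with their proteases Masp1 and Masp2) or spontaneous turnover (Cfb, stabilised by properdin, Cfp) all lead to cleavage of C3 and then of C5, encoded in mice by Hc, after which C6, the C8 chains and C9 assemble a pore in the target membrane. Coagulation converts prothrombin (F2) to thrombin, which cuts fibrinogen (Fga, Fgb and Fgg) into fibrin and also signals to cells through the receptor F2r. Hepatocytes secrete most of these proteins and raise several of them in inflammation, whereas F2r is a membrane receptor known from endothelial and stellate cells, among others.

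One member passed the test of strain (limma, adjusted over all genes). F2r was 3.80-fold lower in NZO, and none of the other 38 members passed over the 6 arrays, against 0.742% of all genes (12 of 39 members had an unadjusted limma p under 0.05, as 11.4% of all genes did). Still, 37 of 39 members had a log2 fold change below 0, as did 55.1% of all genes and 85.5% of the 428 genes with a mean of at least 12, with medians of -0.62 for complement and -0.46 for coagulation genes against -0.03 for all genes and -0.29 for those 428. Most of that shift lay on a single array, NZO replicate 1. When the arrays titled number 1 were modelled as a block, 8 members were lower, where 5.04% of all genes were lower and 1.51% higher (6.55% in all): F2r, the contact factors F12 and Klkb1, the complement proteases C2 and Masp2, and the terminal components C6, C8g and Hc. The block left each log2 fold change at its 6-array value, so the low NZO replicate 1 still counted in it. Without the number 1 arrays, C8g, Hc and Klkb1 did not pass. The lectin Mbl2 went the other way in NZO replicates 2 and 3.

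Promoters are shown for 4 members that stand for these outcomes: F2r, which passed the test, Klkb1 and Hc, which passed with the block, and Fga, a fibrinogen chain that did not. Each line gives the 250 bases before the gene's start in RefSeq (build GRCm38.p6, the C57BL/6J reference and neither strain of this study), 5′ to 3′ on the gene's strand. Capitals mark matches to the motifs described after the sequences.
F2r (chr13:95618467-95618716, minus strand): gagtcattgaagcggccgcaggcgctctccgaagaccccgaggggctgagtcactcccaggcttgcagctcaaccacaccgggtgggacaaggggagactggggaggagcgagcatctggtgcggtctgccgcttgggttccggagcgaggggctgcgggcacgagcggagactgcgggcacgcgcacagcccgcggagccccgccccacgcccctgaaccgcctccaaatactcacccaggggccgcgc
Klkb1 (chr8:45294836-45295085, minus strand): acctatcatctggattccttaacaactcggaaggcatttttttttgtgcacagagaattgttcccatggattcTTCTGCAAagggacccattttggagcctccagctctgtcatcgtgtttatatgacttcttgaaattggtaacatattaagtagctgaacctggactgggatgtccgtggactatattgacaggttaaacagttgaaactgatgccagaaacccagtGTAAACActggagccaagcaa
Hc (chr2:35061413-35061662, minus strand): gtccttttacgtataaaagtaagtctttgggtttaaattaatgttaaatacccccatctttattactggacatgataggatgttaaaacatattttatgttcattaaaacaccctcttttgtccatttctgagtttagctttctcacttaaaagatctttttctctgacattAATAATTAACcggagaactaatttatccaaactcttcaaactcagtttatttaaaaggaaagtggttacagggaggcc
Fga (chr3:83025903-83026152, plus strand): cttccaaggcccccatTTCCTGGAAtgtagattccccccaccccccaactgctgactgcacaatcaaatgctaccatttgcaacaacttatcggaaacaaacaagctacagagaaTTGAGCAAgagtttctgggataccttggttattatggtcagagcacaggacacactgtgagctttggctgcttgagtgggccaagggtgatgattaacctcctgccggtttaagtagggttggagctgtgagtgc

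Motifs of liver and acute-phase factors were searched on both strands of the same 250 bases in 35 promoters, which belong to 33 members (C3 and Cfd, which have no expression value here, included), and in all 32851 promoters. The C/EBP motif TTGCNNAA was found in 9 of the 35 (25.7%), against 9.56% of all promoters. These were C1s1, C3 and C9 among complement genes and F9, F11, Fga, Fgb, Hrg and Klkb1 among coagulation genes. The core of the HNF1 motif was found in C4bp, Hc and F13b (8.57% against 0.371%), and the STAT motif TTCCNGGAA in Fga and Pros1 (5.71% against 0.913%). The FOXA motif TGTTTAC stood in F11 and Klkb1 (5.71% against 3.17%). The HNF4 motif CAAAGTCCA was in none of the 35 (0.384% of all). The full HNF1 palindrome, which contains that core, was also in none, and in 3 of all promoters. F2r held none of these letters. Of the 8 members lower with the block, 7 had a promoter in the table; Hc held 1 match and Klkb1 held 2, as did Fga, which was not called. C2, C4b, Cfb, Cfi, Kng1, Masp1, Plg, Proc and Serping1 were not searched. A match describes letters and is not a binding site or a cause.

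The number 1 arrays bear on every value that follows. BKS replicate 1 and NZO replicate 1 are the arrays whose titles carry the number 1, and their hybridization controls averaged 9.29 and 8.17, against 10.2 to 11.5 on the other 4. The labels do not say that these arrays were handled together. Measured from its BKS mean, the median member lay at -0.04 on BKS replicate 1 and at -1.14 on NZO replicate 1. For the beta-actin control, the 3′ probe set exceeded the 5′ one by 1.72 to 2.33 in BKS and by 1.29 to 1.39 in NZO, a measure that grows as RNA is shortened. The same measure for Gapdh was 0.45 to 0.98 in BKS and -0.04 to 0.14 in NZO. The 18S ribosomal RNA probe set read 10.46 on BKS replicate 2 and 7.91 on BKS replicate 3, against 4.51 to 5.52 on the other 4 arrays. NZO replicate 1 was the lowest array for 36 of the 39 members. It was also the lowest for 406 of the 428 genes of the array whose mean was at least 12. The part of these technical measures in the member differences was not tested beyond the block and the fits without arrays. As a check of the labelled tissue, the 9 measured hepatocyte markers, Alb and Apoa1 among them, averaged at least 12.07 on the log2 scale, with no other tissue to set them against. Their summed level (log2 of the sum of linear values) was 17.33 to 17.37 in BKS and 16.40 to 17.45 in NZO. Bulk liver cannot tell fewer cells of a type from less RNA per cell.

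**Figure D1:**
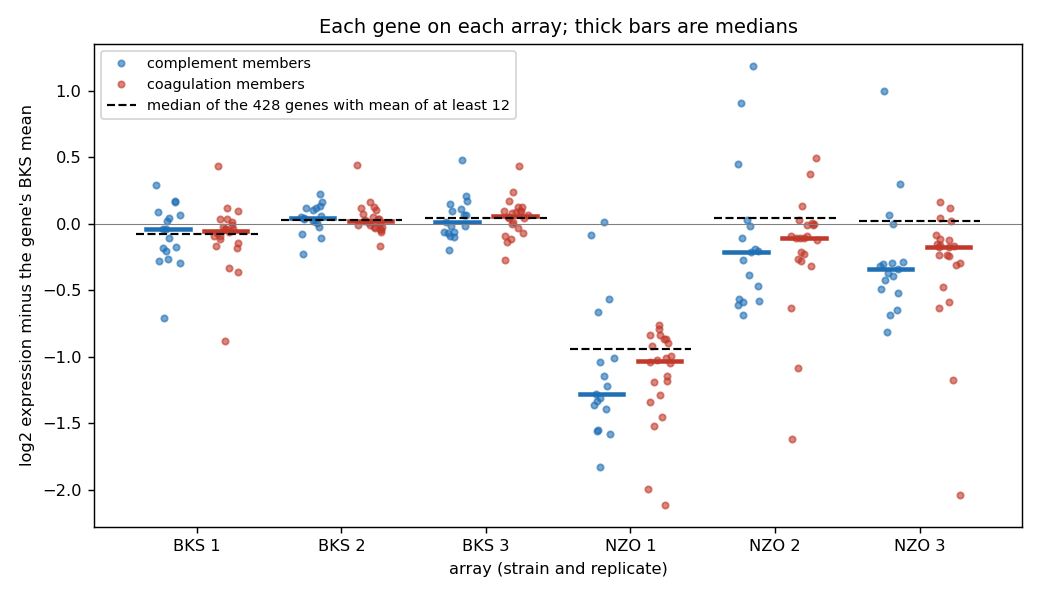
Log2 expression of each of the 17 complement (blue) and 22 coagulation genes (red) minus its BKS mean, by array, with thick bars for the median of each group and a dashed line for the median of the 428 genes with a mean of at least 12. NZO replicate 1 sits at -1.28 and -1.03, and NZO replicates 2 and 3 lie between -0.10 and -0.34.

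The deviation of each gene from its BKS mean shows this array by array. On NZO replicate 1 the median complement gene lay at -1.28 and the median coagulation gene at -1.03, beside -0.94 for the 428 bright genes and -0.15 for all genes. On NZO replicates 2 and 3 the complement medians were -0.21 and -0.34 and the coagulation medians -0.10 and -0.17. Bright genes were then at 0.05 and 0.02. So the large drop on NZO replicate 1 was shared with bright genes at large, and the other NZO arrays showed a smaller shift of the members below them.

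F2r, the thrombin receptor (also called PAR1), had log2 values of 10.71, 10.70 and 10.83 in BKS, against 8.63, 9.12 and 8.70 in NZO. The strains did not overlap, and the lowest BKS array lay above the highest NZO array by more than the range within either strain. The mean went from 10.75 ± 0.07 (SD, n = 3) to 8.82 ± 0.27, which is -1.93 on the log2 scale (standard error 0.18, limma adjusted p = 0.00640). Over all genes, 0.418% were lower and 0.324% higher at this threshold. The difference was -2.08 between the number 1 arrays and -1.85 between the others, so F2r differed alike on both sides of that division. A second probe set gave -1.49 (limma adjusted p = 0.0123 over all probe sets). Both F2r probe sets carry the suffix _s_at, which marks probes that may also bind related transcripts. Leaving out a single array ended the call for BKS replicate 2, BKS replicate 3 and NZO replicate 3 (limma adjusted p = 0.0619, 0.0569 and 0.0514), while its log2 fold change stayed between -1.83 and -2.08.

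Markers of sinusoidal endothelial cells, stellate cells and platelets are given beside F2r, and their part in its difference was not tested. All 8 sinusoidal endothelial markers had a log2 fold change above 0, none past the test, and their summed level was 10.11 to 10.46 in BKS and 10.40 to 11.27 in NZO. With the block 2 of them, Stab2 and Pecam1, were higher, where 1.51% of all genes were. Of 8 stellate cell and fibroblast markers, 4 were above and 4 below 0, with summed levels of 10.63 to 11.67 and 10.58 to 11.41. For the 7 platelet and megakaryocyte markers the sums were 8.74 to 8.86 and 8.83 to 9.05, with 6 above 0. Without the number 1 arrays 2 endothelial, 2 stellate cell and 0 platelet markers were higher, where 2% of all genes were. The related thrombin receptor F2rl2 was at 0.34 (limma adjusted p = 0.524).

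**Figure D2:**
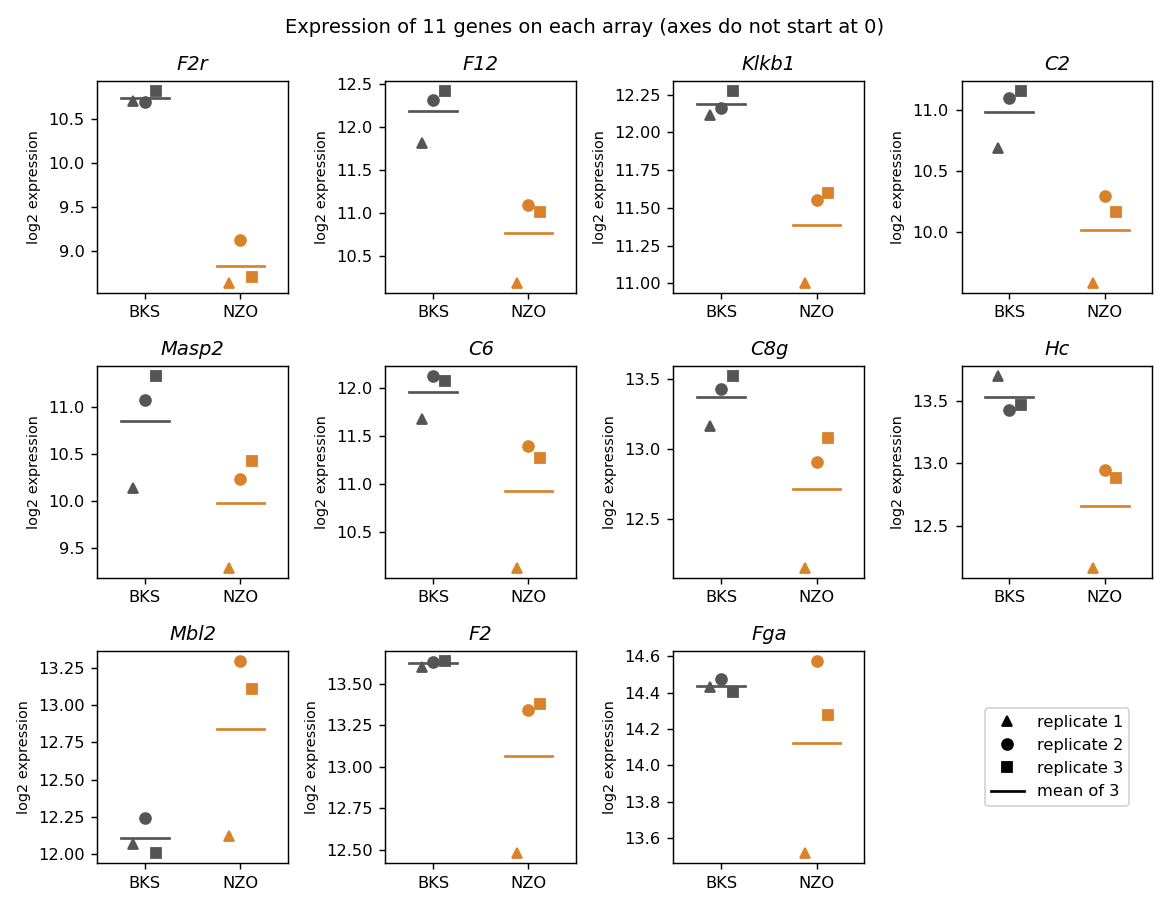
Log2 expression of 11 genes on each array, BKS in grey and NZO in orange, with a bar at the mean of 3 arrays and a separate vertical scale for each gene. F2r, F12, Klkb1, C2, C6, C8g, Hc and F2 do not overlap between strains, Mbl2 is high in NZO replicates 2 and 3 only, and Fga is lowest on NZO replicate 1.

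The contact pathway starts clotting on negatively charged surfaces and releases bradykinin. F12, coagulation factor XII, which opens it, stood at 11.82, 12.31 and 12.42 in BKS and at 10.19, 11.10 and 11.01 in NZO. Every NZO array lay below every BKS array. The fitted difference was -1.42 (standard error 0.29), a 2.67-fold lower mean, with limma adjusted p = 0.0949 and, with the block, adjusted p = 0.00145. It differed by -1.63 between the number 1 arrays and by -1.31 between the others. F12 was also called without the number 1 arrays (limma adjusted p = 0.00522), after repeated quantile normalization (limma adjusted p = 0.0133) and after cyclic loess (limma adjusted p = 0.00803).

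Klkb1, plasma prekallikrein, which F12 activates, was at 12.12, 12.16 and 12.28 in BKS and 11.003, 11.55 and 11.60 in NZO, again without overlap. Its log2 fold change was -0.80 (limma adjusted p = 0.167, and 0.0219 with the block). Klkb1 was not called without the number 1 arrays, where it lay at -0.64 (limma adjusted p = 0.0631). The same held after repeated quantile normalization (limma adjusted p = 0.156) and cyclic loess (limma adjusted p = 0.235). Kng1, the kininogen that is cut to bradykinin, was at -0.46 (limma adjusted p = 0.637), and -0.05 without the number 1 arrays. F11, the zymogen downstream, was low on the number 1 array of each strain, at 9.28 against 10.61 and 10.60 in BKS and at 9.40 against 10.65 and 10.32 in NZO. Its log2 fold change was -0.03, with an interval from -1.08 to 1.02 (95% confidence). The lower F11 values on the number 1 arrays rest on 1 array per strain, and that difference was not tested.

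Among the starters of the lectin and classical pathways, 5 of 6 were below 0 and 1 above. C2, the protease that joins C4 to cleave C3, was at 10.69, 11.10 and 11.15 in BKS, against 9.58, 10.29 and 10.16 in NZO. The arrays of the strains did not overlap, and the log2 fold change of -0.97 (standard error 0.24) had limma adjusted p = 0.163, and 0.00744 with the block. Its other 2 probe sets gave -1.18 and -1.72 (limma adjusted p = 0.0623 and 0.0511), the same direction in all 3.

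Masp2, the lectin pathway protease that cuts C4 and C2, read 10.15, 11.08 and 11.33 in BKS against 9.29, 10.24 and 10.43 in NZO. The strains overlapped because BKS replicate 1 was low, but within the number 1 arrays and within the others the difference was nearly equal, -0.86 and -0.87. Masp2 did not pass over the 6 arrays (limma adjusted p = 0.471) and passed with the block (limma adjusted p = 0.0137). A second probe set, at 9.10 on average, gave -1.23 and passed over all probe sets without a block (limma adjusted p = 0.0273). Masp1, which activates Masp2, was at -0.62 (limma adjusted p = 0.468) on its main probe set, and its 4 other probe sets gave 0.06 to 0.22.

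The mannose-binding lectins had log2 fold changes of opposite sign, neither past the test over the 6 arrays or with the block, and the difference between them was not tested. Mbl1 was at 12.31, 12.17 and 11.94 in BKS and 10.81, 11.56 and 11.62 in NZO (log2 fold change -0.81) with limma adjusted p = 0.263. Mbl2 was at 12.07, 12.24 and 12.01 in BKS and 12.12, 13.30 and 13.11 in NZO, so NZO replicate 1 lay among the BKS arrays and the other NZO arrays above all of them. Over the 6 arrays Mbl2 was at 0.74 with a standard error of 0.31 (limma adjusted p = 0.423, and 0.0884 with the block). Without NZO replicate 1 it was 1.10 higher (limma adjusted p = 0.0276), and without both number 1 arrays 1.08 higher (limma adjusted p = 0.0152). Repeated quantile normalization and cyclic loess gave 1.01 and 1.07 (limma adjusted p = 0.0118 and 0.00755). Mbl2 was singled out after its values were seen. C1s, the classical pathway protease, was at -0.17 (interval -1.04 to 0.70, limma adjusted p = 0.917).

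The terminal components, which build the membrane pore, showed the most uniform pattern. All 6 had every NZO array below every BKS array, where 10.9% of all genes and 21.5% of the 428 bright genes did so. Their log2 fold changes ran from -0.61 (C8a) to -1.03 (C6), with a median of -0.74. Without NZO replicate 1 the 6 were still below 0, with a median of -0.38.

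C6, which joins C5b first, was at 11.68, 12.12 and 12.07 in BKS and 10.12, 11.39 and 11.27 in NZO. Its log2 fold change of -1.03 had limma adjusted p = 0.310, and 0.0167 with the block. It also passed after repeated quantile normalization (limma adjusted p = 0.0479) and cyclic loess (limma adjusted p = 0.0384). Hc, which encodes C5, was at 13.70, 13.42 and 13.46 in BKS and 12.16, 12.94 and 12.88 in NZO (log2 fold change -0.87) with limma adjusted p = 0.2001, and 0.0467 with the block. C8g, the small chain of C8, was at 13.17, 13.43 and 13.52 in BKS and 12.15, 12.91 and 13.08 in NZO (log2 fold change -0.66, limma adjusted p = 0.396, and 0.0496 with the block). Both Hc and C8g lost the call without the number 1 arrays, where they lay at -0.53 and -0.48 (limma adjusted p = 0.105 and 0.145). C8b, C9 and C8a were at -0.72, -0.77 and -0.61, with limma adjusted p of 0.0828, 0.0564 and 0.124 with the block.

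The alternative pathway and the complement inhibitors had no member past the test with or without the block. Cfb, the protease of the alternative C3 convertase, was at -0.62 (limma adjusted p = 0.482). Cfp, properdin, which leukocytes make, was at 6.51, 5.99 and 6.15 in BKS and 6.14, 7.13 and 6.52 in NZO, with overlap and a log2 fold change of 0.38 (limma adjusted p = 0.675). Among 10 Kupffer cell and macrophage markers, 5 were above 0 and 5 below, with summed levels of 11.46 to 12.42 in BKS and 11.41 to 12.42 in NZO. Without the number 1 arrays 2 of the 10 lay below 0. In that fit 3 were higher (Vsig4, Lyz2 and Cd68) and 0 lower, where 2% and 3.02% of all genes were. Of the inhibitors, Cfi, which degrades C3b, was at -0.21, C4bp, its cofactor for C4b, at -0.29, and Serping1, which blocks C1 and the contact proteases, at -0.48.

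**Figure D3:**
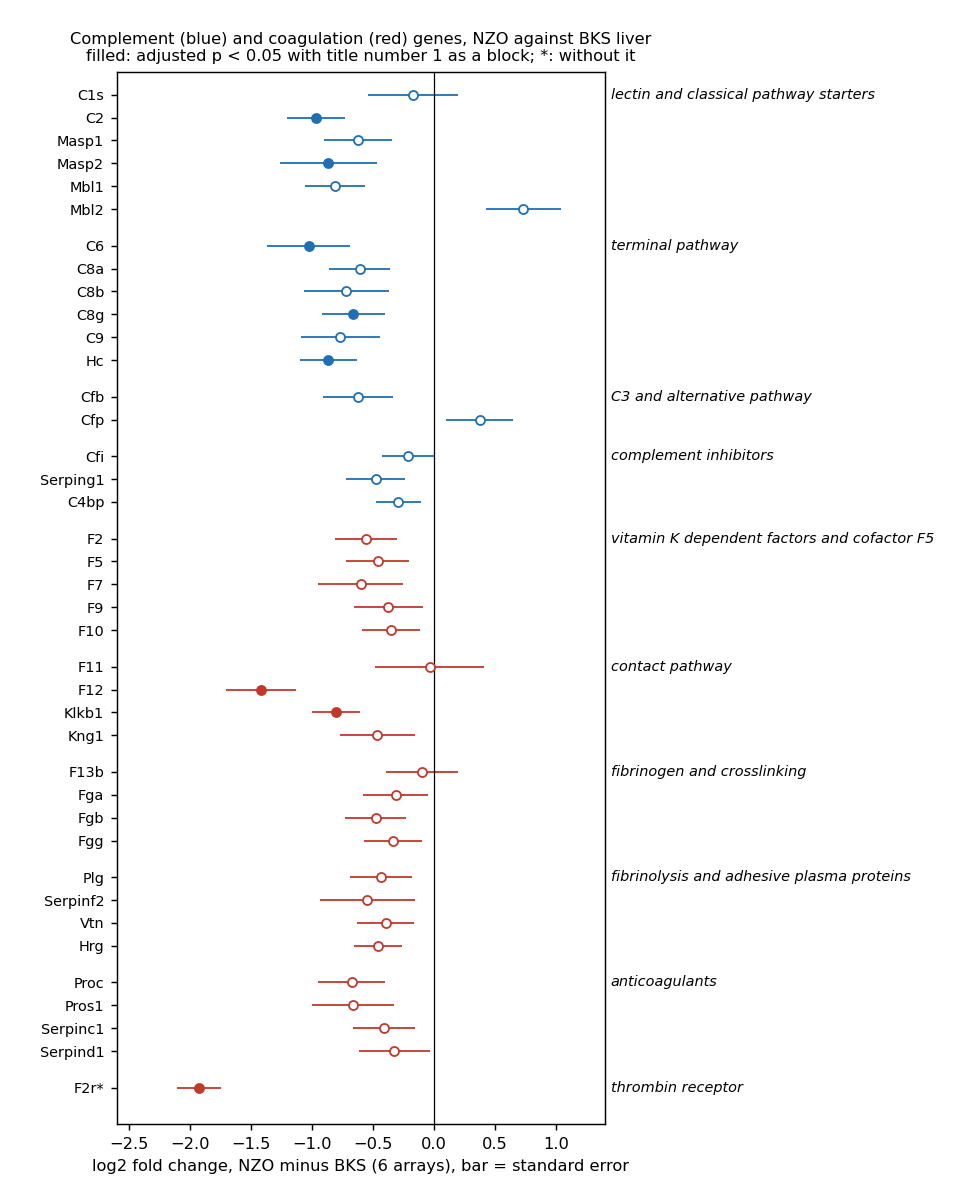
Log2 fold change (NZO minus BKS, 6 arrays) of the 39 members grouped by role, complement in blue and coagulation in red, with bars for the standard error. Filled points passed with the title number as a block (8 members), and the asterisk marks F2r, which passed without it; 37 of 39 points lie below 0.

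The procoagulant factors and fibrinogen gave no call. F2, prothrombin, was at 13.60, 13.63 and 13.64 in BKS, a range of under 0.1, and at 12.48, 13.34 and 13.38 in NZO. The strains did not overlap, but the NZO spread set the error, and the log2 fold change of -0.55 (interval -1.15 to 0.04) had limma adjusted p = 0.475, and 0.127 with the block. F7, F9 and F10, the other vitamin K dependent proteases, were at -0.60, -0.37 and -0.35, and the cofactor F5 at -0.46. Without the number 1 arrays these 5 genes lay between -0.27 and -0.03, with F2 and F9 at the ends.

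Fga, the fibrinogen alpha chain, was at 14.43, 14.48 and 14.40 in BKS and 13.52, 14.57 and 14.28 in NZO. NZO replicate 1 was the lowest array, and NZO replicates 2 and 3 lay just above and just below the BKS range. The log2 fold change was -0.31 (interval -0.95 to 0.32, limma adjusted p = 0.730), -0.01 without the number 1 arrays and 0.0156 after cyclic loess. The beta and gamma chains Fgb and Fgg were at -0.48 and -0.34, and -0.18 and -0.07 without those arrays. F13b, the carrier of the fibrin crosslinking enzyme, was at -0.10.

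No anticoagulant or fibrinolytic member passed the test, with or without the block. Protein C (Proc), protein S (Pros1), antithrombin (Serpinc1) and heparin cofactor II (Serpind1) were at -0.67, -0.66, -0.41 and -0.32, with limma adjusted p of 0.407 to 0.745 and 0.0590 to 0.410 with the block. Plg, plasminogen, was at -0.43 and its inhibitor Serpinf2 at -0.55. The adhesive proteins vitronectin (Vtn) and histidine-rich glycoprotein (Hrg) were at -0.39 and -0.46. Serpind1 and Serpinf2 overlapped between strains, and Plg, Vtn and Hrg did not.

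Set side by side, complement had the lower median, and the difference between the 2 groups was not tested, since the members were chosen with earlier results known. Over the 6 arrays 0 of 17 complement genes and 1 of 22 coagulation genes passed, against 0.742% of all genes. At an unadjusted limma p under 0.05 there were 8 and 4, against 11.4% of all genes. With the block 5 and 3 members were lower and none higher (5.04% of all genes lower). Without the number 1 arrays 3 complement genes were lower and 1 higher, and 2 coagulation genes lower, where 3.02% of all genes were lower and 2% higher (5.01% in all). Without NZO replicate 1 only, Mbl2 was higher and F2r lower, beside 0.824% and 0.594% of all genes (1.42% in all). Repeated quantile normalization gave 1 member higher and 3 lower, beside 1.17% and 1.15% of all genes (2.32% in all). Cyclic loess gave the same counts, beside 1.2% and 1.05% (2.25% in all). Of the 23 members with a mean of at least 12, 2 were lower with the block and 0 without the number 1 arrays, against 4.44% and 1.4% of the 428 bright genes. Of all members, those called both with the block and without the number 1 arrays were C2, C6, F12, F2r and Masp2. Among these, C2 and Masp2 did not pass after repeated quantile normalization (limma adjusted p = 0.0602 and 0.286). Nor did they pass after cyclic loess (limma adjusted p = 0.0566 and 0.3035). Strains did not overlap, with NZO lower, for 11 of 17 complement and 11 of 22 coagulation genes, and in the same direction for 10.9% of all genes. No member was higher in NZO without overlap, as 6.11% of all genes were. The log2 fold change was below 0 for 15 of 17 and 22 of 22, against 55.1% of all genes and 85.5% of the 428 bright genes. The median log2 fold change without the number 1 arrays was -0.35 for complement and -0.16 for coagulation, beside 0.00 for all genes.

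**Figure D4:**
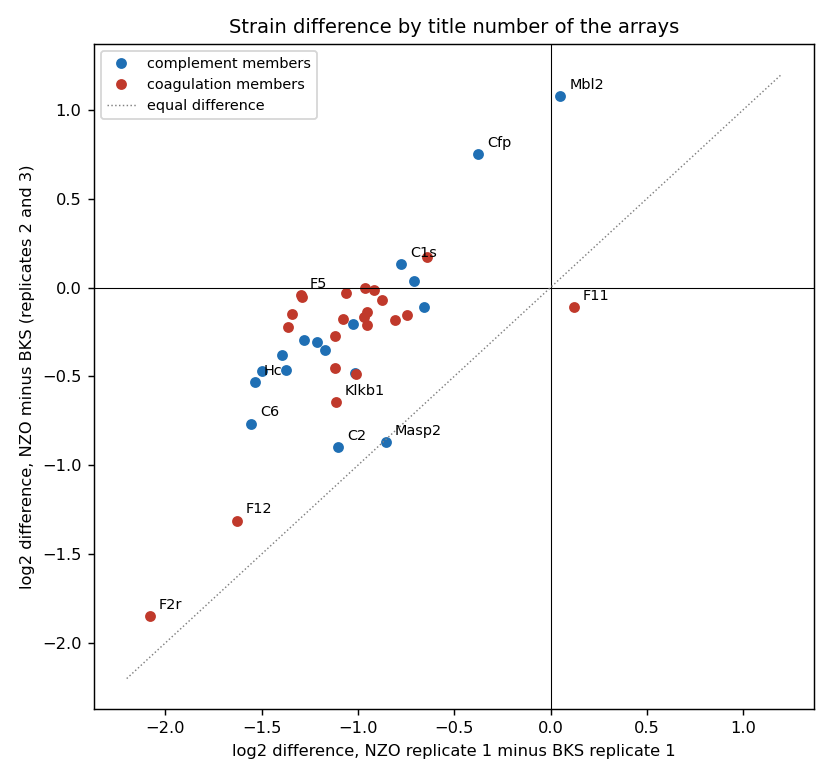
Strain difference of each member on the log2 scale between the number 1 arrays (horizontal) and between replicates 2 and 3 (vertical), with a dotted line where both are equal. F2r (-2.08 and -1.85), F12 and Masp2 lie near the line, most members lie near -1 on the horizontal axis and between -0.5 and 0 on the vertical one, and Mbl2 is at 0.05 and 1.08.

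The plot of strain differences by title number separates these patterns. F2r, F12, C2 and Masp2 differed by similar amounts in both sets of arrays. C6, Hc and Klkb1 differed in both, with a smaller difference outside the number 1 arrays. For Fga, F9, Serpind1 and Kng1 the difference was -0.92 to -1.29 between the number 1 arrays and at most 0.05 in size between the others.

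Other genes of the same cascades were listed beside the members. Of 36 further complement genes 28 were measured, and none passed over the 6 arrays. At an unadjusted limma p under 0.05 there were 4, against 11.4% of all genes. With the block 2 complement regulators were lower, where 5.04% of all genes were. Susd4 had a log2 fold change of -1.42 (limma adjusted p = 0.0959, and 0.00306 with the block). Cr1l was at -0.83 (limma adjusted p = 0.192, and 0.0297 with the block). The second probe set of Cr1l gave -0.17 (limma adjusted p = 0.755 over all probe sets), and that of Susd4 -1.12. Without the number 1 arrays 3 of the 28 were higher (Vsig4, C1qb and C1qc) and 2 lower (Susd4 and Colec12). Of all genes, 2% were higher and 3.02% lower in that fit, and Cr1l did not pass (limma adjusted p = 0.0897). Of 37 further coagulation genes 30 were measured and none passed (2 at an unadjusted limma p under 0.05, against 11.4% of all genes). With the block 1 was higher, where 1.51% of all genes were. It was the plasminogen and tissue plasminogen activator receptor subunit Anxa2 (1.24, limma adjusted p = 0.0980, and 0.0215 with the block). Its second probe set gave 0.57 (limma adjusted p = 0.245 over all probe sets). Habp2, a protease that activates F7, was at 0.94 (limma adjusted p = 0.229), but its second probe set gave -0.15 (limma adjusted p = 0.817 over all probe sets). The medians were -0.06 and -0.01.

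Of 20 regulators of hepatocyte plasma protein genes 18 were measured, and 2 fell, none rose and 16 did not pass. Of all genes, 0.418% were lower and 0.324% higher over the 6 arrays. Il1r1, the interleukin 1 receptor through which acute-phase synthesis is induced, was at 10.34, 10.26 and 10.07 in BKS, against 8.34, 7.95 and 8.15 in NZO. The difference was -2.08 (standard error 0.17, limma adjusted p = 0.00346), but its second probe set gave 0.21 (limma adjusted p = 0.684 over all probe sets). Foxa1, a forkhead factor of hepatocyte identity, was at 10.07, 10.77 and 9.93 in BKS and 8.52, 8.03 and 8.13 in NZO, or -2.03 (standard error 0.26, limma adjusted p = 0.0206, and 0.0515 after cyclic loess). Neither gene was lowest on NZO replicate 1. Foxa1 did not pass with any array left out except NZO replicate 1 (limma adjusted p = 0.0519 to 0.133 without the others), while its log2 fold change stayed between -1.77 and -2.19. With the block 4 of the 18 were lower, where 5.04% of all genes were: Il1r1, Foxa1, the forkhead factor Foxa2 (-0.94, limma adjusted p = 0.0225 with the block) and Socs3, an inhibitor of cytokine signalling (-2.21, limma adjusted p = 0.0334 with the block). Without the number 1 arrays Foxa2 and Socs3 did not pass (-0.81 and -1.51, limma adjusted p = 0.0754 and 0.105). In that fit 2 were lower, Il1r1 and Foxa1, and 1 higher, Esr1, where 3.02% and 2% of all genes were.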

How the data were processed

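Liver RNA (8 ug per array) was hybridised to a 3′ expression array with 45101 probe sets, 1 array for each of 6 samples. The deposited log2 expression values came from RMA, and the submitters' processing notes also name Affymetrix Expression Console. Their versions are not given in the sources used here. Which arrays were normalized together is not given in the sources used here. Of the probe sets, 34945 had 1 gene symbol, 932 several and 9160 none in the annotation table, and 64 were controls. This left 18194 genes, of which 18032 matched GRCm38.p6.

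Strains were compared in 1 fit over all genes with limma 3.58.1 (R 4.3.3, lmFit and eBayes, two-sided, no covariate), adjusted by Benjamini-Hochberg over 18194 genes, and a gene passed below 0.05. Differences are NZO minus BKS throughout. The labels do not say that each sample came from a separate animal, so p-values measure the spread between these samples. The number of arrays limits the precision. Alternatives were the block of number 1 arrays, fits without arrays, other normalizations, a dim-gene filter, other probe sets, a variance trend and array weights. The script was tested on simulated data. Members and lists were chosen with earlier results of these data known. The naming rule took members past the test, with or without the block, those without overlap and a difference of at least 1, and Hc, C3, F2 and Fga. Of further lists it took up to 4 genes past the test, or the 2 with the smallest p. The mean of 12 for bright genes was set after seeing the data. Figures used matplotlib 3.10.9.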

Additional observations from a re-analysis of the deposited data

How the results depend on the processing

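F2r kept its direction in every alternative, with log2 fold changes from -1.49 to -2.08. The counts of members called did not. Complement calls, 0 over the 6 arrays, were 5 with the title number as a block, 4 without the number 1 arrays, 2 after repeated quantile normalization, 2 after cyclic loess, 4 with array weights, and 0 to 1 with 1 array left out. Coagulation calls, 1 over the 6 arrays, were 3, 2, 2, 2 and 3 under the same settings and 0 to 1 with 1 array left out. Over all genes the 135 calls became 1192 with the block, 912 without the number 1 arrays, 422 and 409 after quantile and loess normalization, 234 with a variance trend, 1296 with array weights, and 27 to 258 with 1 array left out. The medians stayed below 0 in every alternative, from -0.29 to -0.83 for complement and -0.12 to -0.59 for coagulation. The nearest to 0 came without NZO replicate 1 (-0.30 and -0.14) and after cyclic loess. Among the genes followed through every alternative, the sign turned for Fga after cyclic loess (0.0156) and, from their second probe sets, for Il1r1 (0.21) and Habp2 (-0.15). Among the other members, C1s, Cfi and F13b turned above 0 without the number 1 arrays (0.13, 0.04 and 0.17). Of the 39 members, 37 were below 0 over the 6 arrays, 34 without the number 1 arrays, 32 without NZO replicate 1 and 30 after cyclic loess. The causes were not tested. No paired analysis was possible because the strains share only title number 1. The block above is a division of the arrays by that number. The files carry no detection call, so signal over background was not measured.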
